A study of Mus musculus with 6 samples.

Results

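Messenger RNA of 10 genes for Polycomb proteins was compared between P21 mouse retinae with and without Hells. The genes were the rows of the count table named Ezh1, Ezh2, Eed, Suz12, Jarid2, Rbbp4, Rbbp7, Bmi1, Ring1 and Rnf2, 10 of 24062 genes listed. All 10 passed the count filter, which kept 16904 genes. The 6 libraries came from whole retinae of mice with the strain label C57BL/6, which the study's methods give as a C57BL/6N background: 3 were labelled Chx10-Cre Rb1/p107/Hells (TKO) and 3 Chx10-Cre Rb1/p107 (DKO). Both groups carried the Chx10-Cre transgene, floxed Rb1 and a germline loss of p107, and TKO mice also carried floxed Hells, which encodes a chromatin remodelling helicase. Chx10-Cre acts in a mosaic of early retinal progenitors, so a retina also held cells that did not recombine, and mice of both sexes were used in the study. The labels do not say that the 3 retinae of a group came from separate mice, so the p-values measure the spread between these samples.

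Polycomb proteins keep genes silent through 2 kinds of complex. Polycomb repressive complex 2 (PRC2) methylates histone H3 at lysine 27, with EZH1 or EZH2 as the enzyme, EED and SUZ12 as the partners without which the enzyme does not work, RBBP4 or RBBP7 as a histone-binding subunit, and cofactors such as JARID2. Polycomb repressive complex 1 (PRC1) ubiquitinates histone H2A through RING1 or RNF2, each paired with a PCGF protein such as BMI1. In the developing retina, Ezh2 is known as a gene of dividing progenitors whose expression declines as cells leave the cell cycle, while Ezh1 persists in cells that no longer divide. Expression of Ezh2 and of several cell cycle genes is controlled by E2F factors, which RB1 and p107 restrain.

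The libraries held 10343907 to 14203098 counts on genes. In Hells, the gene floxed in TKO mice, normalized counts of TKO replicates 1, 2 and 3 were 60.8, 68.4 and 83.4. Those of the DKO replicates were 678, 523 and 395, without overlap (log2 fold change -2.91, standard error 0.225, adjusted p = 0.00359, edgeR). The study's deletion targets part of the gene, while these counts cover the whole gene, so they do not read the deletion itself. The paper describes Hells as controlled by the RB/E2F pathway, and the part of the deletion in this fall was not tested. A normalized count is a count divided by the library's TMM-scaled size relative to the mean size. Markers of photoreceptors, interneurons, ganglion cells and Muller glia were each above 0 in at least 1 library, as the retinal label requires. Several lists of marker genes moved with genotype. The summed level of 9 rod markers was 27383 to 50815 CPM (counts scaled to one total for every library) in TKO and 10077 to 18486 CPM in DKO retinae, and all 9 passed the test as higher. That of 23 genes of dividing cells was 326 to 784 CPM in TKO and 1488 to 2680 CPM in DKO retinae, and all 23 passed as lower. Among 9 microglia markers 6 passed as lower (131 to 256 against 311 to 489 CPM), and among 10 lens markers 5 passed as higher (48.7 to 266 against 13.0 to 14.7 CPM, with the 266 CPM in TKO replicate 2). No gene of these 4 lists was at 0 in all libraries. In the rod and the dividing cell lists, replicate 3 of each genotype was the library nearest to the other genotype. The part of cell composition in the results was not tested, and in whole retinae fewer cells of a type and less RNA per cell cannot be told apart.

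The promoters of Ezh2, Suz12 and Ezh1 are shown. Ezh2 and Suz12 were the only members whose RefSeq promoter window held an exact match to the E2F letters given below. Other forms of the E2F motif were not searched. Ezh1 is the paralogue of Ezh2 that differed in the opposite direction. Each window runs from 250 bases before the annotated start site to 50 bases after it, 5′ to 3′ on the strand of the gene (RefSeq, GRCm38.p6). Capitals mark a match to TTTCCCGC, TTTCGCGC, TTTGCCGC or TTTGGCGC, which were searched on both strands. The windows lie at chr6:47594981-47595280 (minus strand) for Ezh2, chr11:79992856-79993155 (plus strand) for Suz12 and chr11:101226414-101226713 (minus strand) for Ezh1.
Ezh2: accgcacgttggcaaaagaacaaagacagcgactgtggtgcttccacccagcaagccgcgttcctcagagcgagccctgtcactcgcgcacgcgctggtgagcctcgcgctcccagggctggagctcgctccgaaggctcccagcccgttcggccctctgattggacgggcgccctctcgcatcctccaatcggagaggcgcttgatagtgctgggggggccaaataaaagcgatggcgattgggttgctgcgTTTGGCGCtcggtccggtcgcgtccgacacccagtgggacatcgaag
Suz12: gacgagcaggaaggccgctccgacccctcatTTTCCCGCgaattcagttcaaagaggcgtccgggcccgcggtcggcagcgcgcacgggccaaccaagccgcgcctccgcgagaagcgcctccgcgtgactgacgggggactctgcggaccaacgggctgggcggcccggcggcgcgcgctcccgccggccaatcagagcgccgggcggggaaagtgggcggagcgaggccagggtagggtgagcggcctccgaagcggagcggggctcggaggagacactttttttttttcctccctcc
Ezh1: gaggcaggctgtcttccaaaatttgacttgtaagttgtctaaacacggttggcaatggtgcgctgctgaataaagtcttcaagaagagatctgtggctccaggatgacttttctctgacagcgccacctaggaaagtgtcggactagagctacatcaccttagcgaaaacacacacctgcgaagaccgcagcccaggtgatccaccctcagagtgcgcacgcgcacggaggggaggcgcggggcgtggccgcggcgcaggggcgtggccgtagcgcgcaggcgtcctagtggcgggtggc
The match in Ezh2 began at base +4 from the start site and that in Suz12 at base -219. These letters were present in 2 of the 11 windows of the 10 members, in 3.46% of the 15712 windows of tested genes and in 2.26% of all 32851 windows. The letters TTTGAA, the cell cycle homology region element searched on both strands, were present in 2 of the 11 member windows, those of Eed and Suz12, against 12.1% of the windows of tested genes. The member windows held 17 to 41 CpG dinucleotides with a median of 30, while the windows of tested genes had a median of 18. A match is a description of letters and not a binding site.

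The question for the members was whether their mRNA differed between TKO and DKO retinae. Of the 10 members, Ezh1 rose, Ezh2 and Rbbp7 fell and 7 did not pass the test (adjusted p of at most 0.05, edgeR's quasi-likelihood test, Benjamini-Hochberg over all genes tested). Over all genes tested, 7.35% passed as higher and 9.20% as lower, against 1 and 2 of the 10 members. Only Ezh2 also met the study's criteria for a differentially expressed gene, which also ask for a log2 fold change of 1 or more in size and 10 or more normalized counts on average, and which 6.35% of all genes met. The groups did not overlap in 2 members higher in TKO (Ezh1 and Jarid2) and in 3 lower in TKO (Ezh2, Rbbp4 and Rbbp7), where 18.0% and 20.6% of all genes did so. The median log2 fold change of the 10 members was 0.017 and that of all genes -0.011. Leaving out TKO replicate 1, TKO replicate 2, DKO replicate 1 or DKO replicate 2 reduced the members that passed from 3 to 1 each time, and leaving out TKO replicate 3 or DKO replicate 3 gave 3.

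**Figure D1:**
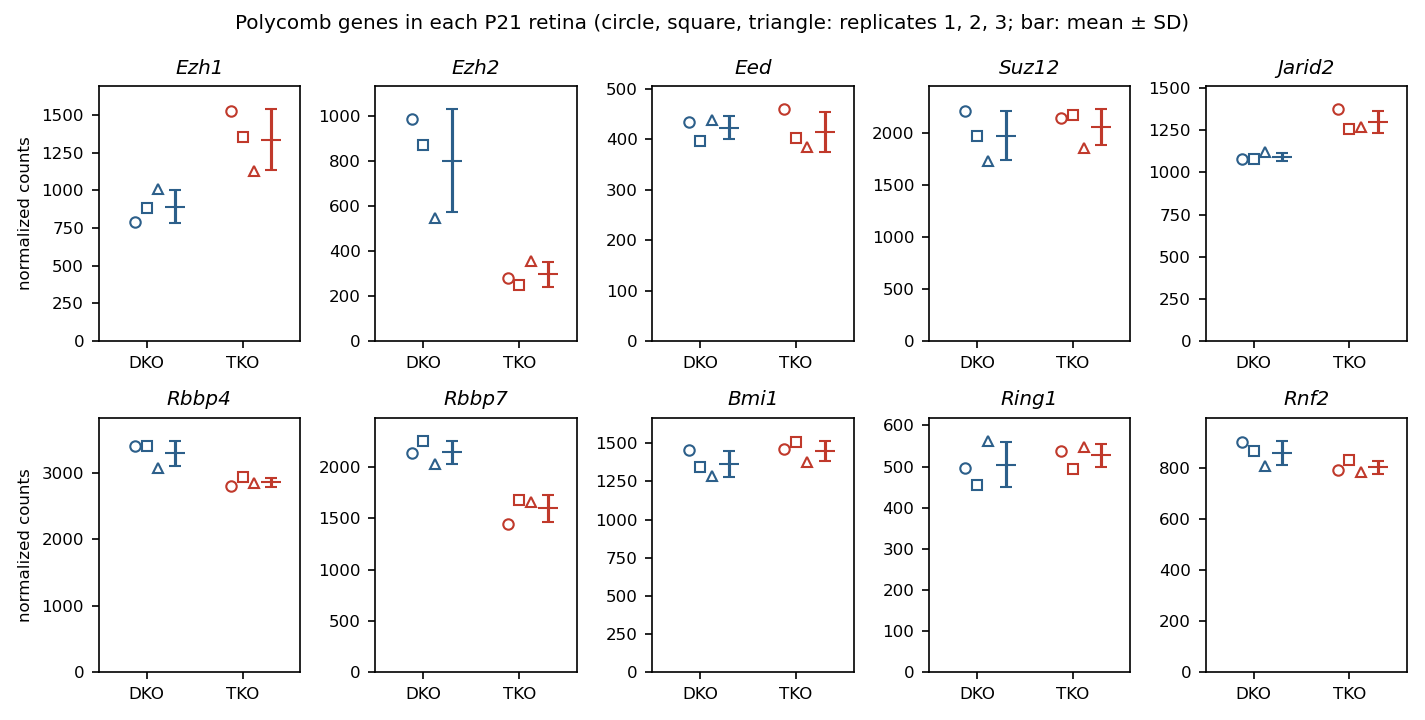
Normalized counts of the 10 Polycomb genes, 1 panel per gene with its own scale from 0, for 3 DKO (blue) and 3 TKO (red) retinae. Symbols are replicates and bars the mean ± SD. Ezh2 lies between 251 and 357 in TKO and between 547 and 989 in DKO retinae, Ezh1 lies higher in all TKO retinae, and the PRC1 genes of the lower row overlap between genotypes.

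Ezh2 encodes the PRC2 methyltransferase of dividing cells and lies on chromosome 6 of GRCm38, chr6:47530139-47595341 on the minus strand. TKO replicates 1, 2 and 3 had 281, 251 and 357 normalized counts, and the corresponding DKO replicates 989, 873 and 547. The highest TKO retina was below the lowest DKO retina, and replicate 3 was nearest to the other genotype on both sides. Means were 296 ± 54.9 for TKO and 803 ± 230 for DKO (SD, n = 3 each), so TKO retinae had 36.9% of the DKO level. The log2 fold change was -1.44 (standard error 0.225, 95% interval -1.96 to -0.92, adjusted p = 0.00798, edgeR). Ezh2 passed with each retina left out in turn, with adjusted p up to 0.0429 and log2 fold changes from -1.65 to -1.26.

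Ezh1 encodes the alternative PRC2 methyltransferase and lies at chr11:101191115-101226463 on the minus strand. Its values were 1527, 1357 and 1125 normalized counts for TKO replicates 1, 2 and 3 and 788, 880 and 1008 in DKO replicates 1, 2 and 3. All TKO retinae were above all DKO retinae, and replicate 3 was again the nearest to the other genotype. Means were 1337 ± 202 and 892 ± 111 (SD, n = 3 each). The log2 fold change was 0.58 (standard error 0.132, 95% interval 0.28 to 0.89, adjusted p = 0.0219, edgeR), or 149.8% of the DKO level. The call was lost without TKO replicate 1 (adjusted p = 0.0693), TKO replicate 2 (0.0805), DKO replicate 1 (0.0790) or DKO replicate 2 (0.0846), while the log2 fold change stayed between 0.48 and 0.70 with any 1 retina left out.

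The counts of both enzymes were set against each other within each library, where the scaling of libraries cancels. The ratio of Ezh1 to Ezh2 counts was 5.44, 5.42 and 3.15 in TKO replicates 1, 2 and 3, and 0.796, 1.01 and 1.85 in DKO replicates 1, 2 and 3. Every TKO retina had the higher ratio. This had to be so, since Ezh1 was higher and Ezh2 lower in TKO, each without overlap. The test of the ratio therefore adds no support beyond the results of the single genes. The mean log2 ratio was 2.18 ± 0.452 for TKO and 0.19 ± 0.625 for DKO (SD, n = 3 each), a difference of 1.99 with p = 0.1 in an exact two-sided permutation test, the smallest p that 3 against 3 allows. Ezh2 made up 15.5%, 15.6% and 24.1% of the counts of both genes in TKO and 55.7%, 49.8% and 35.1% in DKO retinae. The sum of both genes was then also computed, a measure chosen after their values were seen. It was 1808, 1607 and 1482 normalized counts in TKO and 1777, 1753 and 1555 in DKO retinae. The groups overlapped in this sum, with means of 1633 ± 164 and 1695 ± 122 (exact permutation test, two-sided p = 0.7, n = 3 each). The genes differ in length, so these ratios and sums compare retinae and not the molar amounts of the enzymes.

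**Figure D2:**
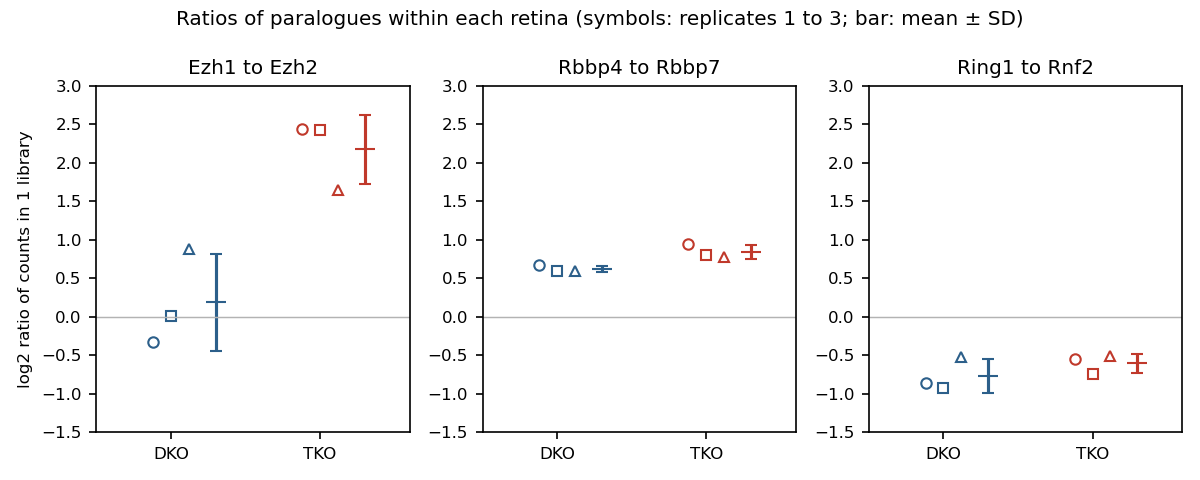
Log2 ratio of the counts of 3 pairs of paralogues within each library, for 3 DKO and 3 TKO retinae; symbols are replicates and bars the mean ± SD. Ezh1 to Ezh2 lies between 1.65 and 2.44 in TKO and between -0.33 and 0.88 in DKO retinae, and Rbbp4 to Rbbp7 also separates by genotype over a smaller range, while Ring1 to Rnf2 overlaps.

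Eed and Suz12, which encode the partners required by either enzyme, did not pass the test. Eed (chr7:89954654-89980983, minus strand), whose protein binds the methylated histone tail, had 460, 402 and 384 normalized counts in TKO and 434, 397 and 439 in DKO retinae. Suz12 (chr11:79993106-80034123, plus strand), the scaffold subunit, had 2144, 2172 and 1862 in TKO and 2214, 1978 and 1737 in DKO retinae. The genotypes overlapped in both genes. The log2 fold change was -0.026 for Eed (95% interval -0.27 to 0.21, adjusted p = 0.885, edgeR) and 0.060 for Suz12 (95% interval -0.19 to 0.31, adjusted p = 0.739), intervals that exclude a change of the size seen in Ezh2. The ratio of Ezh2 to Eed counts was 0.611, 0.623 and 0.930 in TKO and 2.28, 2.20 and 1.25 in DKO replicates 1, 2 and 3. Jarid2 (chr13:44729474-44921643, plus strand), a cofactor that helps PRC2 bind chromatin, had 1375, 1257 and 1270 normalized counts in TKO and 1082, 1078 and 1119 in DKO retinae. Its groups did not overlap, but its log2 fold change of 0.25 (standard error 0.0730) just missed the threshold (adjusted p = 0.0503, edgeR). Across the other settings its adjusted p ranged from 0.0465 with the filter filterByExpr to 0.400 with scaling by total counts only, where its log2 fold change was 0.093. It was at 0.0487 with DESeq2's size factors in edgeR, the other setting in which it passed, and at 0.0563 in DESeq2.

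Rbbp7 and Rbbp4 encode closely related WD40 proteins that bind histones in PRC2 and in other complexes. Rbbp7 (chrX:162760402-162779092, plus strand) had 1450, 1680 and 1664 normalized counts in TKO and 2137, 2258 and 2035 in DKO replicates 1, 2 and 3. The groups were separate, with TKO replicate 1 the lowest. Its means of 1598 ± 129 and 2143 ± 112 (SD, n = 3 each) put the log2 fold change at -0.42 (standard error 0.0873, adjusted p = 0.0162, edgeR). The call was lost without TKO replicate 1 (adjusted p = 0.0513), TKO replicate 2 (0.0541), DKO replicate 1 (0.0551) or DKO replicate 2 (0.0739). Rbbp4 (chr4:129307100-129335370, minus strand) had 2804, 2936 and 2845 normalized counts in TKO and 3401, 3411 and 3078 in DKO retinae. Its groups did not overlap either, but the log2 fold change of -0.20 (standard error 0.0792) did not pass (adjusted p = 0.114, edgeR). Scaled by total counts only, Rbbp4 was at -0.36 with an adjusted p of 0.0291, where the median of all genes was at -0.17. The log2 ratio of Rbbp4 to Rbbp7 counts was 0.84 ± 0.095 for TKO and 0.62 ± 0.043 for DKO (SD, n = 3 each), a difference of 0.22 (exact two-sided permutation test, p = 0.1, the smallest possible). Antisense genes overlap 1578 bases of the exons of Rbbp4 and at least 158 bases of those of each of Eed, Suz12, Rbbp7, Ezh2 and Rnf2, and the strand setting of the counting is not given in the sources used here.

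The 3 PRC1 members did not pass the test. Bmi1 (chr2:18677018-18686629, plus strand), a PCGF subunit of canonical PRC1, had 1460, 1509 and 1376 normalized counts in TKO and 1453, 1343 and 1286 in DKO retinae. Ring1 (chr17:34020792-34024680, minus strand), a ubiquitin ligase subunit, had 538, 495 and 549 in TKO and 497, 455 and 563 in DKO retinae. Rnf2 (chr1:151458004-151500955, minus strand), the other ligase subunit, had 789, 829 and 783 in TKO and 901, 864 and 806 in DKO retinae. The genotypes overlapped in all 3 genes. The log2 fold changes were 0.090 for Bmi1 (95% interval -0.092 to 0.27), 0.061 for Ring1 (-0.18 to 0.30) and -0.098 for Rnf2 (-0.28 to 0.082), with adjusted p of 0.465, 0.724 and 0.420 (edgeR). At an unadjusted p under 0.05, 0 of these 3 and 5 of the 7 PRC2 members were counted, where 33.1% of all genes tested were. DESeq2 passed the same numbers of members in each direction as edgeR, 1 higher and 2 lower. The log2 ratio of Ring1 to Rnf2 counts was -0.60 ± 0.124 for TKO and -0.77 ± 0.218 for DKO (SD, n = 3 each), a difference of 0.16 (exact two-sided permutation test, p = 0.3).

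Levels of different genes were compared as normalized counts per kilobase of annotated exons. Rbbp7 was the highest member in both genotypes, with 549 in TKO and 737 in DKO retinae. In DKO retinae Suz12 (400), Rbbp4 (377) and Bmi1 (342) followed, of which neighbours overlapped, and then Rnf2 (208) and Ring1 (156). Ezh2 (120.2), Ezh1 (119.9), Jarid2 (113) and Eed (111) came last in DKO retinae, and from Ring1 on each overlapped its neighbour in this order. In TKO retinae Suz12 (416), Bmi1 (364) and Rbbp4 (327) followed Rbbp7, and Ezh2 was alone at the bottom with 44.4 per kilobase, below Eed (109) without overlap, and Ezh1 (180) stood between Rnf2 (194) and Ring1 (163), overlapping both, with Jarid2 (134) below them. The choice of length bears on the order: with the longest transcript in place of all exons, Ezh2 was at 288 and Ezh1 at 212 in DKO retinae, and at 106 and 318 in TKO retinae. Ezh2 was the lowest of the 10 members in TKO retinae with either length.

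**Figure D3:**
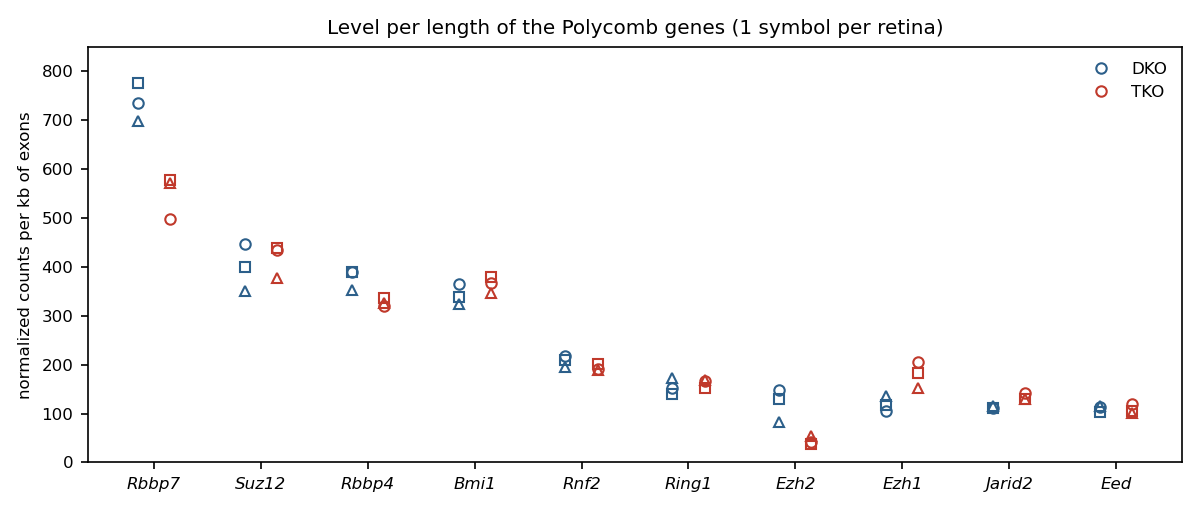
Normalized counts per kilobase of exons for the 10 members, ordered by their DKO mean, in 3 DKO (blue) and 3 TKO (red) retinae, 1 symbol per retina with replicates 1, 2 and 3 as circle, square and triangle. Rbbp7 is highest in every retina, and Ezh2 in TKO retinae forms the lowest group, from 37.5 to 53.5.

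The genes whose pattern over the 6 libraries was most like that of Ezh2 were Bora, Topbp1 and Kif20a. Likeness was the root mean square difference of log2 normalized counts, each centred on the gene's mean, among 11680 genes with a mean of at least 100, and it was 0.046 for Bora, 0.063 for Topbp1 and 0.066 for Kif20a. Bora encodes an activator of Aurora A, Topbp1 a DNA replication and checkpoint protein and Kif20a a kinesin of cell division. Topbp1 had 423, 399 and 551 normalized counts in TKO and 1578, 1290 and 924 in DKO retinae. For Ezh1 the nearest genes were Rab43 (0.029), Acsl6 (0.036) and Pmm1 (0.039), which encode a small GTPase, an acyl-CoA synthetase and a phosphomannomutase. Rab43 had 752, 698 and 545 normalized counts in TKO and 397, 430 and 503 in DKO retinae.

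The fall of Ezh2 was set beside the genes of dividing cells. Rrm1, a ribonucleotide reductase subunit, had 705, 768 and 828 normalized counts in TKO and 2266, 1955 and 1431 in DKO retinae, and Ccnb2, a mitotic cyclin, had 28.7, 44.2 and 50.3 against 278, 281 and 140. Plk1, a mitotic kinase, had 35.5, 48.4 and 87.1 against 316, 312 and 206. In these genes DKO replicate 3 was the lowest DKO retina and TKO replicate 3 the highest TKO retina, the order that Ezh2 showed. The more abundant Pcna, the DNA polymerase clamp, and Top2a, a topoisomerase, had log2 fold changes of -1.27 and -3.21 (adjusted p = 0.00821 and 0.00780, edgeR). The fold change of Ezh2 (-1.44) lay within the range of the 23 genes, -3.21 to -1.27 with a median of -2.48. How much of the fall of Ezh2 goes with the number of dividing cells was not tested.

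**Figure D4:**
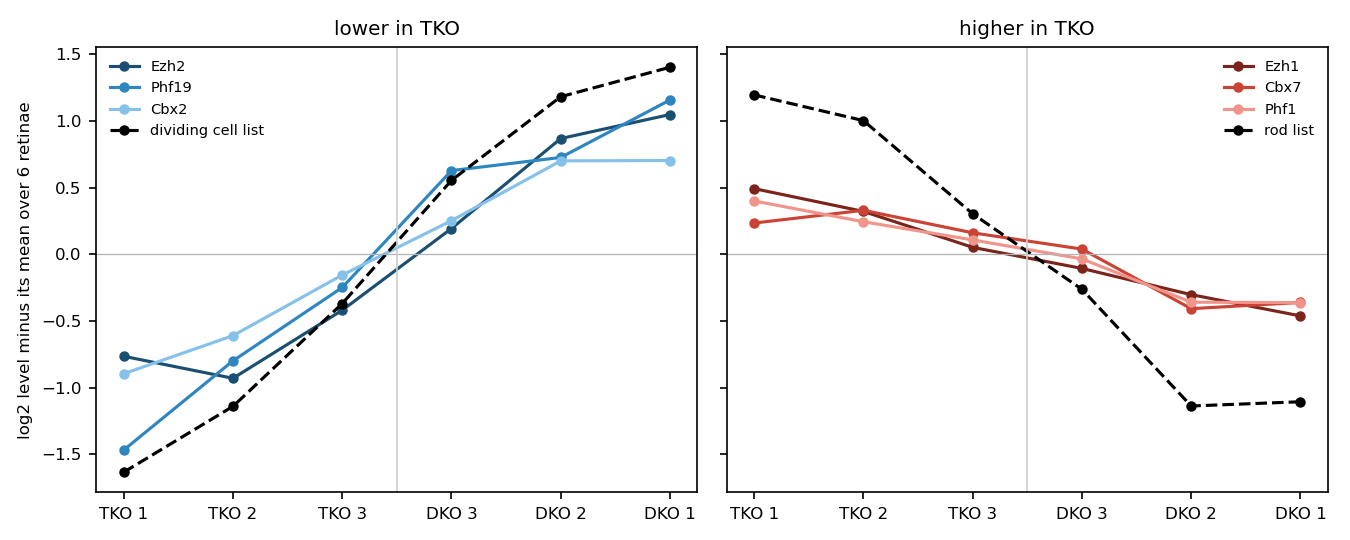
Log2 level minus its mean over the 6 retinae for Polycomb genes lower in TKO (left: Ezh2, Phf19, Cbx2, with the summed CPM of 23 dividing cell genes dashed) and higher in TKO (right: Ezh1, Cbx7, Phf1, with the summed CPM of 9 rod markers dashed), retinae ordered by genotype with replicate 3 in the middle. Values of Ezh2 run from -0.93 in TKO replicate 2 to 1.05 in DKO replicate 1, those of Ezh1 from 0.49 in TKO replicate 1 to -0.46 in DKO replicate 1, and the marker lists span more than either.

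The wider set of Polycomb genes held 53 genes in 5 lists, of which 52 were tested and Ezhip had too few counts. Of these, 6 rose, 3 fell and 43 did not pass. The shares were 11.5% higher and 5.77% lower, beside 7.35% and 9.20% of all genes, and the median log2 fold change was -0.0044 beside -0.011 for all genes. Scaled by total counts only, 1 rose and 7 fell. Single retinae moved this count of 9. Leaving out TKO replicate 1 gave 2, TKO replicate 2 gave 0, DKO replicate 1 gave 0 and DKO replicate 2 gave 1, but leaving out TKO replicate 3 or DKO replicate 3 gave 13. At an unadjusted p under 0.05 the fits with 0 calls counted 14 genes of the lists each, and 25.4% of all genes tested without TKO replicate 2 and 26.6% without DKO replicate 1.

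Among the other PRC2 genes, Phf19 fell and Phf1 and Lcor rose, and 4 of the 7 tested did not pass. The shares were 28.6% higher and 14.3% lower, beside 7.35% and 9.20% of all genes. Phf19 and Phf1 are Polycomb-like proteins, paralogues that help PRC2 bind its sites. Phf19 had 35.5, 56.8 and 83.4 normalized counts in TKO and 222, 165 and 154 in DKO replicates 1, 2 and 3 (log2 fold change -1.62, standard error 0.295, adjusted p = 0.0114, edgeR). Phf1 had 987, 886 and 806 in TKO and 582, 583 and 730 in DKO retinae (0.50, standard error 0.119, adjusted p = 0.0259). Phf19 and Phf1 thus differed in opposite directions with no overlap between genotypes in either, as Ezh2 and Ezh1 did. Over all genes, 18.0% were higher and 20.6% lower in TKO without overlap. A further Polycomb-like gene of this list, Mtf2, was lower in TKO, also without overlap, but did not pass (-0.23, standard error 0.0872, adjusted p = 0.105, edgeR). Lcor, a locus that also encodes the PRC2 cofactor PALI1, had 182, 152 and 119.04 in TKO and 90.3, 90.2 and 82.0 in DKO retinae (0.79, standard error 0.188, adjusted p = 0.0263). Aebp2, a cofactor found with JARID2, had means of 900 ± 54.4 and 901 ± 47.3 (SD, n = 3 each) and a log2 fold change of -0.0021 (95% interval -0.19 to 0.19). Besides Ezh2, Phf19 and Cbx2 were the genes of the complexes that met the study's criteria.

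Among the 12 other genes of canonical PRC1, Cbx2 fell, Cbx7 rose and 10 did not pass. The share was 8.33% in each direction, beside 7.35% higher and 9.20% lower over all genes. Cbx2 and Cbx7 both encode chromodomain proteins that read the methyl mark of PRC2. Cbx2 had 97.5, 118.9 and 163 normalized counts in TKO and 296, 296 and 217 in DKO replicates 1, 2 and 3, and its log2 fold change was -1.09 (standard error 0.214, adjusted p = 0.0137, edgeR). Cbx7 had 768, 821 and 730 in TKO and 508, 492 and 671 in DKO retinae (0.47, standard error 0.128, adjusted p = 0.0399). Replicate 3 was again nearest to the other genotype in both genes. Cbx6, the most abundant chromodomain gene of the list, had 4405 ± 331 and 4647 ± 278 normalized counts (SD, n = 3 each, log2 fold change -0.077, 95% interval -0.29 to 0.14), and Phc2, a Polyhomeotic subunit, had 1926 ± 167 and 1655 ± 143 (0.22, adjusted p = 0.157).

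**Figure D5:**
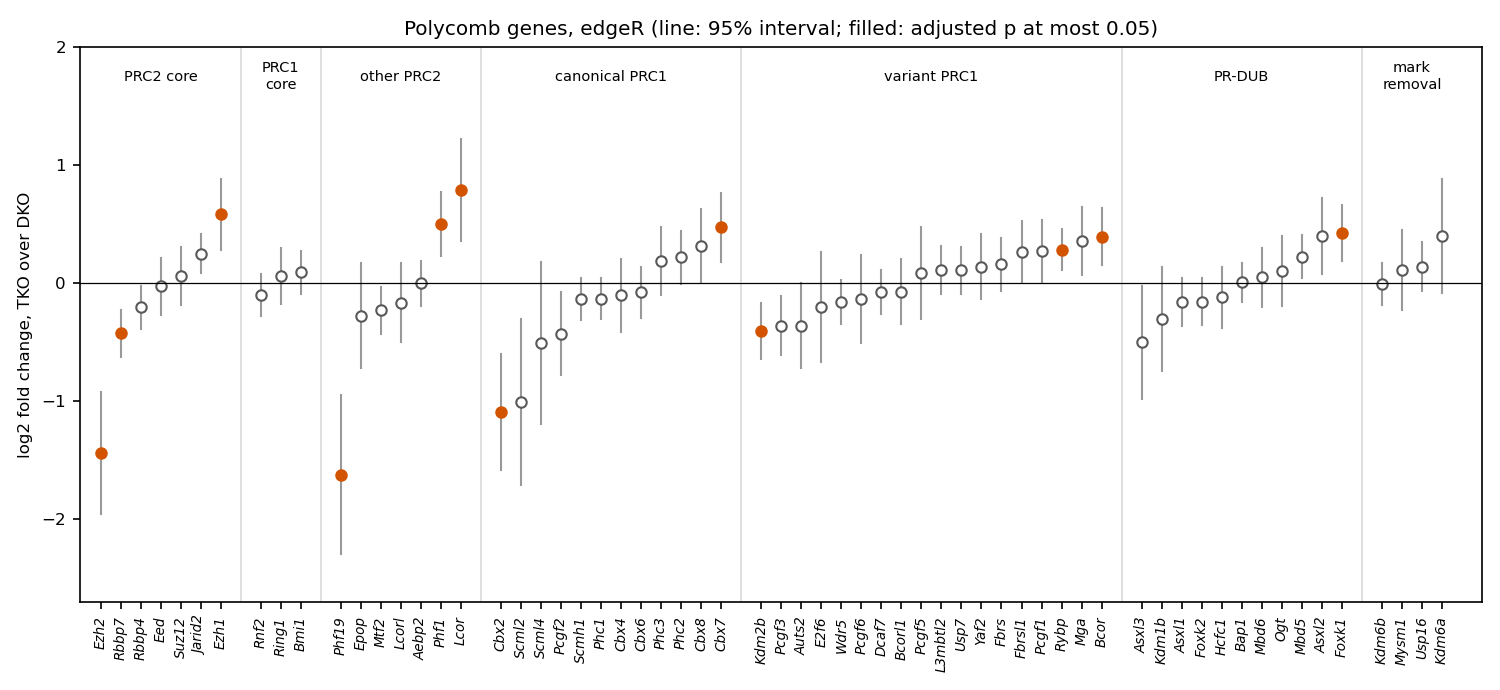
Log2 fold changes (TKO over DKO) of the 10 members (PRC2 core, PRC1 core) and the 52 other Polycomb genes tested, by complex; lines are 95% intervals and filled points passed an adjusted p of 0.05. Phf19 (-1.62), Ezh2 (-1.44) and Cbx2 (-1.09) are the passing genes furthest below 0, and those above 0 reach 0.79 (Lcor).

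Of 18 genes of variant PRC1, which holds RYBP or YAF2 in place of a CBX protein, Bcor and Rybp rose, Kdm2b fell and 15 did not pass. The shares were 11.1% higher and 5.56% lower, beside 7.35% and 9.20% of all genes. Bcor, a corepressor of the complex with PCGF1, had 1578, 1618 and 1403 normalized counts in TKO and 1134, 1046 and 1318 in DKO retinae (log2 fold change 0.39, adjusted p = 0.0370, edgeR). Rybp had 1303, 1376 and 1216 against 1067, 1086 and 1052 (0.28, adjusted p = 0.0392). Kdm2b, which brings the same complex to CpG islands, had 461, 522 and 529 against 678, 723 and 603 (-0.41, adjusted p = 0.0312). Groups did not overlap in any of these 3 genes, which were named because they passed. Over all genes, 18.0% were higher and 20.6% lower in TKO without overlap. The most abundant of the list, Dcaf7 and Usp7, had log2 fold changes of -0.074 and 0.11 (adjusted p = 0.563 and 0.413). Of 11 genes of the deubiquitinase complex PR-DUB, which removes the mark of PRC1, Foxk1 rose (978, 959 and 900 against 658, 645 and 811 normalized counts, log2 fold change 0.42, adjusted p = 0.0288) and 10 did not pass, among them Ogt (0.10, adjusted p = 0.624) and Hcfc1 (-0.12, adjusted p = 0.492). The PR-DUB shares were 9.09% higher and 0% lower. Of 4 other enzymes that remove either mark, 0 passed and 0 had an unadjusted p under 0.05 in edgeR, where 33.1% of all genes tested did. The demethylase genes Kdm6b and Kdm6a had log2 fold changes of -0.0068 (95% interval -0.19 to 0.17) and 0.40 (-0.085 to 0.88).

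Rbbp4 and Rbbp7 proteins also sit in the chromatin assembly factor CAF-1, in NuRD, SIN3, MuvB and other complexes. Of 25 genes for subunits of those complexes, 6 fell, 1 rose and 18 did not pass, with a median log2 fold change of -0.049. The shares were 24.0% lower and 4.00% higher, where 9.20% and 7.35% of all genes passed in these directions. The CAF-1 genes Chaf1b and Chaf1a fell the most. Chaf1b had 37.8, 70.5 and 117 normalized counts in TKO and 486, 432 and 268 in DKO retinae (log2 fold change -2.40, standard error 0.369, adjusted p = 0.00766, edgeR). Chaf1a had 198, 215 and 258 against 542, 549 and 391 (-1.14, standard error 0.164, adjusted p = 0.00706). Both deposit histones behind the replication fork, and in both replicate 3 was nearest to the other genotype, as in the dividing cell genes. Hdac2, a histone deacetylase of NuRD and SIN3, had 1182, 1218 and 1183 against 1732, 1825 and 1426 (-0.48, adjusted p = 0.0174). Mta2, a NuRD subunit, rose (2904, 2658 and 2031 against 1737, 1692 and 1835, log2 fold change 0.53, adjusted p = 0.0274), while the NuRD ATPase genes Chd4 and Chd3 were at -0.046 and -0.049 (adjusted p = 0.789 and 0.766). The count of 7 was 2 without TKO replicate 1, TKO replicate 2, DKO replicate 1 or DKO replicate 2, 6 without TKO replicate 3 and 8 without DKO replicate 3.

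Genes that Polycomb complexes are known to silence were read in the same libraries. Of 39 Hox genes, 31 were at 0 in all 6 libraries and 0 had enough counts to be tested. Their summed level was at most 1.11 CPM in any retina, in DKO replicate 1, and at most 0.097 CPM in a TKO retina. Of 15 other textbook targets 6 were tested, of which 2 fell and 0 rose, where 9.20% of all genes fell and 7.35% rose. Cdkn2a, the locus of p16 and p19ARF, had raw counts of 1, 1 and 2 in TKO and 26, 28 and 21 in DKO retinae. With 4 counts in TKO and 75 in DKO retinae, it passed the count filter only through DKO. Its call as lower is therefore tied to that filter. The pooled TKO level was 6.80% of the DKO level, with an exact 95% counting interval from 1.81% to 18.2% that covers counting error only (adjusted p = 0.00627, edgeR). Tbx5, a T-box factor of the dorsal retina, had 55.0, 63.1 and 50.3 normalized counts against 105, 122 and 101 (log2 fold change -0.95, adjusted p = 0.0133). Wt1, a zinc finger factor, had 0, 0 and 16.0 against 22.6, 18.4 and 35.4 normalized counts and did not pass (adjusted p = 0.138). The count of 2 was 4 without TKO replicate 3 and 1 without DKO replicate 1 or DKO replicate 2. Neither histone marks nor protein were measured in these libraries.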

How the data were processed

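Libraries of retinal mRNA (TruSeq Stranded mRNA), 3 TKO and 3 DKO, were analysed from the raw counts per gene that the authors deposited. The paper names STAR and HTSeq on GRCm38, and the submitters' processing notes name TopHat2, featureCounts and DESeq2; which made this table, and its strand setting, is not given in the sources used here. Genes with a count sum under 10 were removed. Counts were TMM-scaled and compared by edgeR 4.0.16 (R 4.3.3, quasi-likelihood F test, Benjamini-Hochberg over 16904 genes). The fit was also run on simulated counts with few changed genes, as many raised as lowered. That run does not test the calls under a broad shift such as that of the rod markers. Lists and the 10 members were chosen with earlier results of these data known. Named genes were Hells, the members, up to 3 genes with the smallest adjusted p in each direction and the 2 most abundant of each list, and the 3 genes nearest to Ezh2 and to Ezh1. Mtf2 was added beside Phf19 and Phf1 after the results were seen. Log2 ratios used a pseudocount of 0.5. Gene models are GENCODE M21, another release than the paper's, and promoters RefSeq. Counts of 2 retinae of the same genotype differed beyond counting error (chi-square over its degrees of freedom, 8.61 to 25.3). Alternatives were DESeq2 1.42.0, other scalings and filters, robust dispersion, a replicate block and each retina left out.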

Additional observations from a re-analysis of the deposited data

How the results depend on the processing

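With the replicate number as a block, 0 members, 0 of the wider Polycomb genes, 0 RBBP partner genes and 0 target genes passed in edgeR, and 0 members met the study's criteria. At an unadjusted p under 0.05 that fit counted 5, 17, 12 and 3, where 29.6% of all genes tested were counted. DESeq2, which was run without the block only, passed 3, 10, 8 and 2, with 1 member meeting the study's criteria. Ezh2 had an adjusted p of 0.0589 in the block fit. Across genes, TKO and DKO libraries with replicate number 1, 2 or 3 deviated from their genotype's mean with correlations of 0.041, -0.044 and -0.12. Of the 6 libraries, 1 correlated best with its own number. With so few libraries, and with replicate 3 of each genotype nearest to the other in several lists, these correlations cannot decide whether the numbers pair retinae. The labels do not say what the numbers mean. The block fit also has fewer residual degrees of freedom. With at least 10 counts in every library 1 target gene passed, since that filter removes Cdkn2a. With 1 retina left out, members that passed ranged from 1 to 3, wider Polycomb genes from 0 to 13, RBBP partners from 2 to 8 and targets from 1 to 4. The remaining planned settings kept these counts within 1.5 times.

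The direction of 4 members that did not pass turned in some settings. Scaled by total counts only, Suz12 was at -0.10, Bmi1 at -0.069 and Ring1 at -0.094. Eed was at 0.031 without TKO replicate 3 and at 0.00069 without DKO replicate 3, Suz12 at -0.025 without DKO replicate 3 and Ring1 at -0.0088 without DKO replicate 2; the cause was not tested. With 1 retina left out, Eed ranged from -0.11 to 0.031, Suz12 from -0.025 to 0.15 and Ring1 from -0.0088 to 0.15. Ezh1, Ezh2, Jarid2, Rbbp4, Rbbp7 and Rnf2 kept their direction in all 15 settings, and the 3 log2 ratios in all of theirs. Depth limits the Hox genes and Cdkn2a, where a library held few counts or 0.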
